A study of Caenorhabditis elegans with 2 samples.

Results

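The histone genes of Caenorhabditis elegans were described in peak lists from chromatin immunoprecipitation followed by sequencing (ChIP-seq) of NHR-12, a nuclear hormone receptor carrying a GFP tag. Members were all genes of the Ensembl WBcel235 annotation whose symbol starts with his-. The rule gave 72 genes of 46890 annotated nuclear genes, and all 72 are among the 19973 nuclear protein-coding genes. Another his- gene lay within 5 kb of 67 of them, which are called clustered and form 14 clusters, and the other 5 are called isolated. The 2 samples are biological replicates of 1 group, whole L2 larvae of strain OP318, males and females pooled, with the unc-119(ed3) mutation on III and the integrated transgene wgIs318 that supplies tagged NHR-12. Every sample carries the same mutation and transgene, no second condition was part of the design, and the sources used here do not say in which cells the transgene is active. Whole animals were used, so a peak cannot be assigned to a cell type. Age was listed as unknown.

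Histones package DNA into nucleosomes, which hold pairs of H2A, H2B, H3 and H4, while linker histone H1 binds the DNA between them. In animals, most core histone genes are replication-dependent: they are present in many near-identical copies, are transcribed in S phase, and yield mRNA that ends in a conserved stem-loop bound by the stem-loop binding protein instead of a poly(A) tail. Replication-independent variants such as H3.3 are made outside S phase and replace histones in transcribed chromatin. In C. elegans, core genes lie in small clusters, often in head-to-head pairs that share the DNA between their start codons. Nuclear hormone receptors bind DNA through a zinc finger domain.

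The sequences below are examples: the 5' regions of 2 genes with a summit close to the annotated start, and the shared spacers of H2A/H2B and H3/H4 pairs that held no summit. They are from RefSeq (assembly WBcel235, which is ce11). Capitals mark, on either strand, TATAAA of the TATA box, the CCAAT letters of the CCAAT box, the repeat GAGAGA, the E-box CACGTG and the letters GACGCA, each searched on its own, overlaps included. The his-37 stretch (chrV:9546855-9547104, plus strand) and the his-24 stretch (chrX:14489844-14490093, plus strand) are the 250 bases before the annotated 5' end, and the pooled summit lies at base 156 of the first and base 190 of the second. The spacers are read from the start codon of the gene named first to that of the gene named second, with the 50 bases next to each start codon left out. The his-51/his-52 spacer (chrV:8850222-8850413, plus strand) is identical in 4 H2A/H2B pairs, and the his-13/his-14 spacer (chrII:13819988-13820159, minus strand) is identical in 3 H3/H4 pairs.
his-37 5' region: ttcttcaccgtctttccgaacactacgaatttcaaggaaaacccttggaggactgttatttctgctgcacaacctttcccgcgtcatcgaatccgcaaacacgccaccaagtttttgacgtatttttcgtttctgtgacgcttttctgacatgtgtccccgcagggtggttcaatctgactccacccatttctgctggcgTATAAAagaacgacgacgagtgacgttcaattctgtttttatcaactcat
his-24 5' region: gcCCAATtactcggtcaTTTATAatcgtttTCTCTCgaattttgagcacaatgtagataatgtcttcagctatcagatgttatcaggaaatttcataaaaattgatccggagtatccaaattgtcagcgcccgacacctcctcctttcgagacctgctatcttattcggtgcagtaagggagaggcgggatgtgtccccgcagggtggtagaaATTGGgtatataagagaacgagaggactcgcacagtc
his-51/his-52 spacer: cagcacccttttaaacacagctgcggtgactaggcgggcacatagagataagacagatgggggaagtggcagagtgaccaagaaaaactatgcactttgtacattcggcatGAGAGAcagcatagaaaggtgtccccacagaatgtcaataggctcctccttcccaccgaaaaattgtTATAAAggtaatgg
his-13/his-14 spacer: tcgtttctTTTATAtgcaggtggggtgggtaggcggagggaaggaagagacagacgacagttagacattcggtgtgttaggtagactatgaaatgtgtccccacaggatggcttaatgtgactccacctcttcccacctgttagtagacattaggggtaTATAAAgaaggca

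The authors deposited a signal value for each peak, without an error, and its scale is particular to each list. The thresholded list held 228 peaks, 199 of them nuclear, the pooled relaxed list 29431, and the relaxed list of each replicate 30000. A relaxed list is a permissive call that includes background, so a summit in it is a weak statement on its own. Read depth is unknown, and a gene without a summit was not called in that list, which does not show that the factor was absent. A gene was counted when a summit lay within 1000 bp of its annotated 5' end. For most members that end is the start codon, since 69 of the 72 gene models have a length that is a multiple of 3 and 8 have an annotated UTR.

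The share of histone genes with a summit was below that of protein-coding genes in every relaxed list. A pooled relaxed summit lay near 16 of 72 histone genes (22.2%), where the share over all nuclear protein-coding genes was 46.1% and over all annotated nuclear genes 58%. In replicate 1 the count was 26 of 72 (36.1%), beside 50.1% of protein-coding and 54.4% of all genes. Replicate 2 had 13 of 72 (18.1%), beside 46.6% of protein-coding and 58.4% of all genes. Both replicates had a summit at 10 histone genes (13.9%), beside 27.4% of protein-coding and 36.1% of all genes. This count asks for a summit of each replicate within 1000 bp, which need not be the same peak. At his-8 the replicate 1 summit lay 854 bp upstream of the start and the replicate 2 summit 620 bp downstream. In the thresholded list 1 histone gene had a summit (1.39%), beside 0.926% of protein-coding and 0.7% of all genes, which is the share that a single gene makes. No summit in any relaxed list lay near 43 of the 72 genes. A summit in all 3 relaxed lists lay near 10, while 16 had one in replicate 1 alone of the replicates and 3 in replicate 2 alone. The same counts over protein-coding genes are not given here, so these counts and the 43 are not read as particular to histone genes.

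These counts are of genes that share DNA, and they are a description with no test. The 16 genes with a pooled summit shared 11 distinct best summits, and the 26 genes of replicate 1 shared 17. The median distance from a histone gene's 5' end to the nearest pooled summit was 4160.5 bp, against 1167 bp for protein-coding genes. Just inside the limit were his-15 at 922 bp and his-4 at 942 bp, and just outside it his-42 at 1024 bp and his-29 at 1038 bp.

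The share with a summit was higher among isolated than among clustered genes in all 3 relaxed lists. Of the 5 isolated genes, 4 had a pooled summit, 4 one in replicate 1, 3 one in replicate 2 and 3 one in both replicates. Of the 67 clustered genes, 12 (17.9%) had a pooled summit, 22 (32.8%) one in replicate 1, 10 (14.9%) one in replicate 2 and 7 (10.4%) one in both. With 5 isolated genes, 1 gene moves their share by 20 percentage points.

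**Figure D1:**
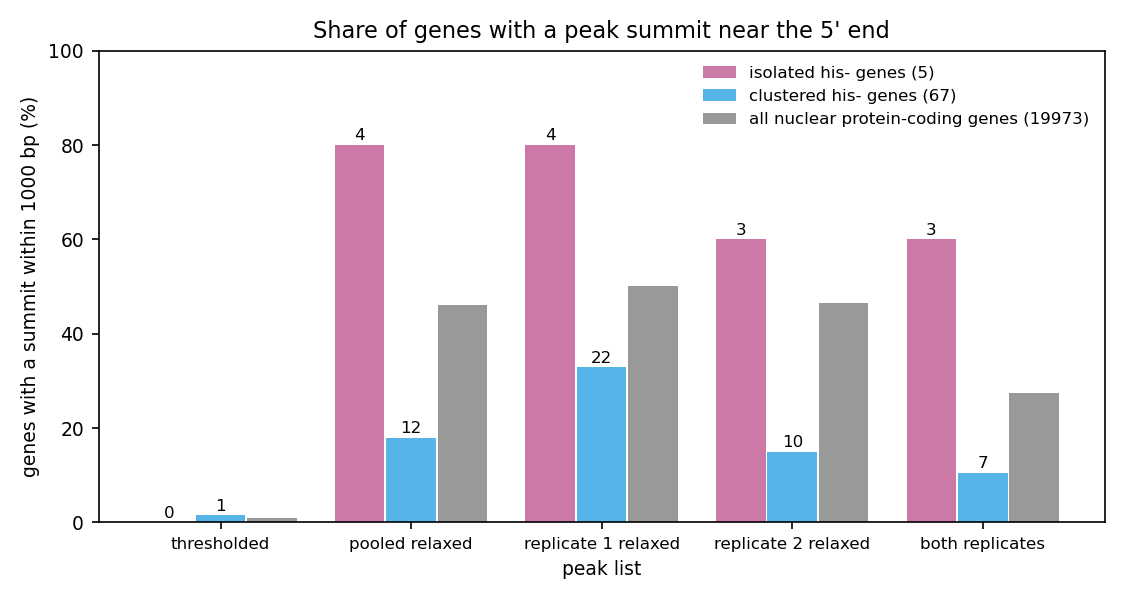
Percent of genes with a summit within 1000 bp of the 5' end in each peak list, for isolated and clustered his- genes and for all nuclear protein-coding genes; the figures over the bars count the his- genes. In the 3 relaxed lists the clustered genes lie below the protein-coding genes and the isolated genes above them, but 5 genes make up the isolated bars.

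The member with the strongest peak was his-37, an H4 gene (chrV:9547105-9547607, plus strand) at the edge of the small his-35 to his-37 cluster. Its pooled summit lay 95 bp upstream of the annotated start, inside the 5' sequence printed above, and had a signal of 73.3, rank 62 of 29431. The same peak was the only thresholded summit near a histone gene, at rank 33 among the 199 nuclear peaks of that list, whose median signal was 46.6. Replicate 1 had a summit 24 bp from the pooled one, with a signal of 26.9 and rank 45 of 30000. Replicate 2 had no peak overlapping it. The nearest summit of replicate 2 lay 2360 bp away, with a signal of 13.9 at rank 6459. The peak was thus called in replicate 1 and in the pooled lists and not in replicate 2. All 36-base words within 1000 bp of the his-37 start occur at a single place in the genome (100%), and no stem-loop was found after its stop codon. The other genes of the cluster, his-35 (H2A) and his-41 (H2B), had no pooled summit, and a summit of replicate 1 with a signal of 7.39 lay near both.

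A larger share of H3.3 genes than of other H3 genes had a summit nearby. Among the 5 genes whose RefSeq product names H3.3 (his-69, his-70, his-71, his-72 and his-74), 4 had a pooled summit, against 2 of 15 other H3 genes. In replicate 1 the counts were 4 of 5 and 5 of 15, and in replicate 2 they were 3 of 5 and 2 of 15. The shares over protein-coding genes were 46.1% in the pooled list, 50.1% in replicate 1 and 46.6% in replicate 2. This split was made after the values were seen. Of the 5, 3 are isolated, and all 5 had 92.7% to 100% single-place words within 1000 bp, against a median of 27.8% over the 15 other H3 genes, of which 4 had at least 75%. The part of isolation and of repeated sequence in this difference was not tested. For 3 of the 4 H3.3 genes with a pooled summit, another gene had the nearest 5' end: rcq-5 at 140 bp for his-69, and rpt-6 and ccch-3 for his-72 and his-74.

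At his-72 (chrIII:12367475-12369050, minus strand), an H3.3 gene, the pooled signal was 30.8 at rank 413. The overlapping peaks had a signal of 4.86 in replicate 1 and 25.4 in replicate 2, at ranks 7709 and 334, so this peak ranked higher in replicate 2. Its summit lay 877 bp upstream of the his-72 start and closer to another gene, at 529 bp from the 5' end of rpt-6, which encodes a proteasome subunit. Each replicate also had a summit with a lower signal nearer the his-72 start, at 387 bp in replicate 1 and 254 bp in replicate 2. At his-71 (chrX:7981382-7982070, minus strand), also an H3.3 gene, the pooled signal was 19.1 at rank 3323, 497 bp upstream. The overlapping peak had a signal of 3.33 in replicate 1 and 17.0 in replicate 2. Both H3.3 genes thus had their higher rank in replicate 2, the opposite of his-37. At his-74 (chrV:12659704-12660330, minus strand), the pooled signal was 10.6 at rank 22544 of 29431. Its summit lay 153 bp from the 5' end of ccch-3 and 490 bp from that of his-74, and neither replicate had a peak overlapping it.

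The linker histone gene his-24 (chrX:14490094-14491119, plus strand) had a summit close to its start in all 3 relaxed lists. The pooled summit lay 61 bp upstream, in the 5' sequence printed above, with a signal of 15.6 at rank 7553. The signal was 8.42 in replicate 1, rank 1177, and 8.29 in replicate 2, rank 26266. This peak thus ranked higher in replicate 1 than in replicate 2. The fifth isolated gene, his-73 (chrII:13183705-13183845, plus strand), which RefSeq describes as a histone-domain protein, had no summit within 1000 bp. Its nearest summits lay at 9446 bp in the pooled list, 5478 bp in replicate 1 and 2835 bp in replicate 2.

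**Figure D2:**
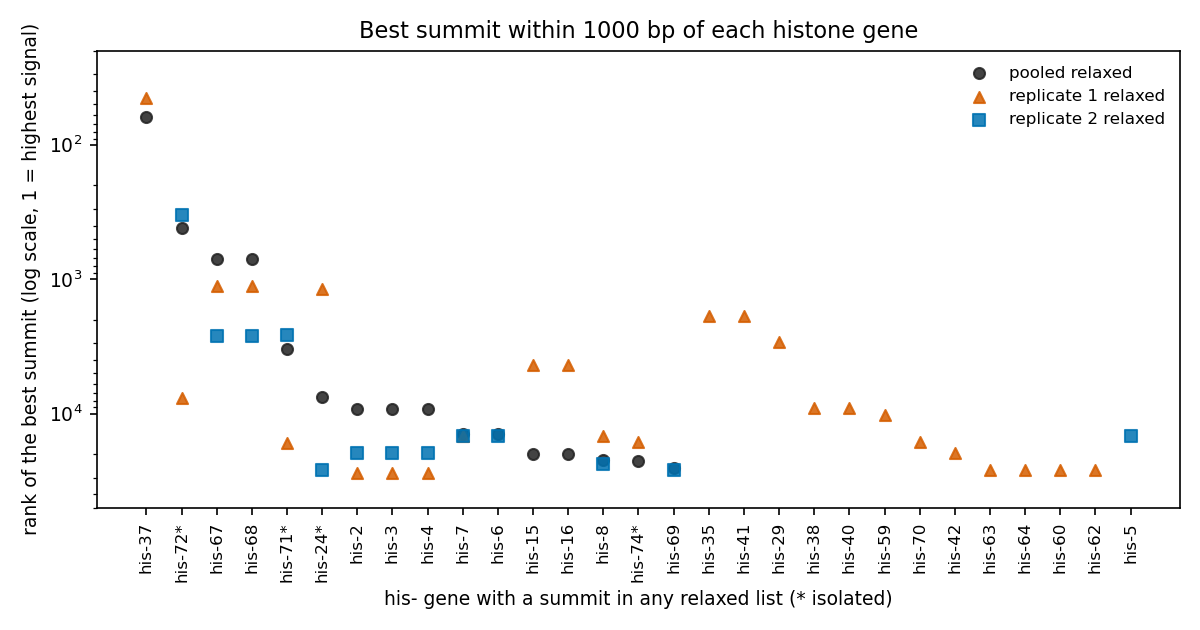
Rank of the best summit within 1000 bp of the 5' end (log scale, 1 is the highest signal) in the pooled, replicate 1 and replicate 2 relaxed lists, for the 29 his- genes with a summit in any of them; isolated genes carry an asterisk. The his-37 summit ranks highest of the his- genes in the pooled list and in replicate 1, with no point for replicate 2, and most other points lie beyond rank 1000.

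Among clustered genes the next strongest peak lay between his-67 (H4) and his-68 (H2A), a head-to-head pair on chromosome I. The shared pooled summit had a signal of 26.5 at rank 704, and the signal was 8.52 in replicate 1 and 17.0 in replicate 2, at ranks 1128 and 2641. It was the only pooled summit inside a spacer of 31 head-to-head pairs. A summit shared by his-2 (H3), his-3 (H2A) and his-4 (H2B) had a pooled signal of 14.7 at rank 9247, with 2.54 in replicate 1 and 9.58 in replicate 2. The replicate 1 signal ranked 27911 of 30000, close to the lowest of that list, 2.40. This pooled summit lay 649 bp after the start of his-3, outside both spacers of that cluster. A summit shared by his-6 (H3) and his-7 (H2A) had a signal of 12.8 at rank 14243, and overlapping peaks had 3.74 in replicate 1 and 10.8 in replicate 2. The remaining members with a pooled summit, his-8, his-15, his-16, his-69 and his-74, had signals from 10.02 to 11.2. Of the 16 genes, 10 had a best pooled summit for which a his- gene had the nearest annotated 5' end.

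The median rank of the best pooled summit was 9247 over the 16 histone genes and 11786 over the 9213 protein-coding genes with one. In replicate 1 the medians were 12448.5 and 12315, and in replicate 2 they were 14583 and 12250. The pooled list ranked 4 of the 16 genes among its first 1000 peaks, namely his-37, his-72, his-67 and his-68, the last 2 through a shared summit. Among the first 1000 peaks of replicate 1 this held for 1 histone gene, his-37, and in replicate 2 for 1, his-72. The share of protein-coding genes among the first 1000 peaks was not computed, so these counts are a description.

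Summits were sparse inside the clusters. The 14 spans, from the first base of the first gene to the last base of the last, covered 62001 bp and held 4 pooled summits, or 0.645 per 10 kb, where the nuclear genome had 2.93 per 10 kb. Replicate 1 had 12 summits in them, or 1.94 per 10 kb, beside 2.99 over the nuclear genome. Replicate 2 had 3, or 0.484 per 10 kb, beside 2.99. The 4 pooled summits lay in the clusters his-67 to his-68, his-8 to his-39, his-35 to his-37 and his-4 to his-1. A further 3 clusters, his-16 to his-42, his-69 to his-70 and his-29 to his-34, had a pooled summit within 1000 bp outside the span.

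In 4 clusters with 22 genes, no member had a summit in any relaxed list: his-47 to his-45 and his-55 to his-57 on IV, and his-50 to his-53 and his-28 to his-18 on V. The largest cluster, his-16 to his-42 on II with 13 genes, had a pooled summit near 2 of its members, both at its his-16 end. The clusters his-61 to his-59, his-29 to his-34 and his-66 to his-64 on IV and his-38 to his-40 on X had member summits in replicate 1 alone. Whole stretches of the family thus had none, and the sequence of those stretches is described next.

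**Figure D3:**
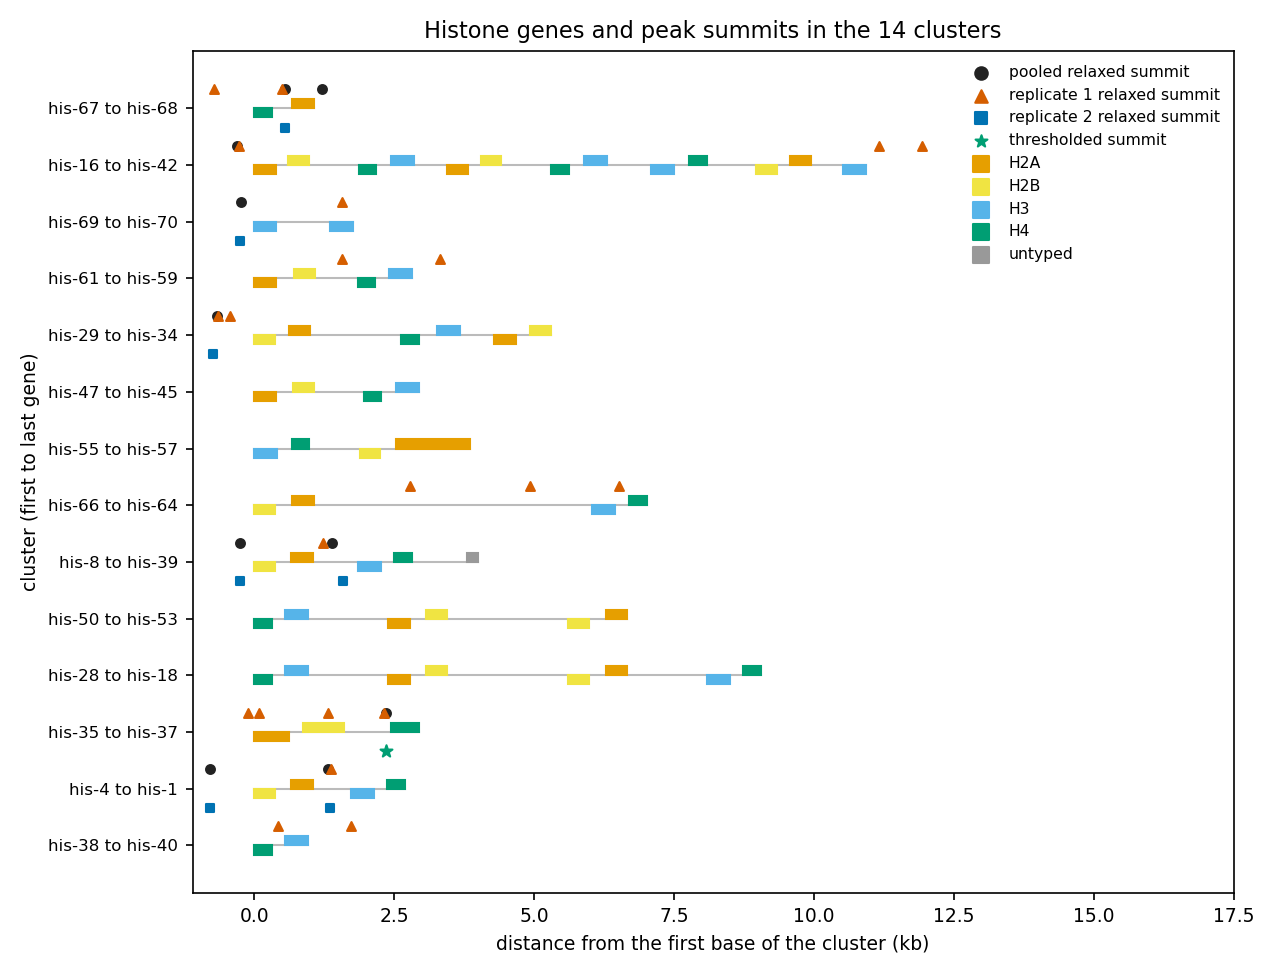
Maps of the 14 clusters, each from its first base (kb, to scale), with genes as boxes coloured by histone type (upper row plus strand, lower row minus strand) and summits from 1000 bp before to 1000 bp after each cluster. Pooled and replicate 1 summits are drawn above and replicate 2 and thresholded summits below; 4 clusters have no symbol at all, and the thresholded star lies at his-37.

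The sequence around most clustered genes is repeated in the genome: 20 of the 67 had at least 75% of their 36-base words within 1000 bp at a single place, and the median over the 67 was 26.8%. Of the 36-base words within 500 bp of a 5' end, the median share that occurs at a single place was 7.61% over all 72 histone genes and 100% at protein-coding genes, and it was 0 at 25 histone genes. Within 1000 bp the medians were 29.3% and 100%. The V clusters show the extreme: the 6661 bp from his-50 to his-53 (chrV:8847393-8854053) are identical, with 0 mismatches, to the stretch from his-28 to his-19 (chrV:8889488-8896148), inside an identical run of 15287 bp. A read that lies wholly inside this run matches both copies, and the sources used here do not say whether the lists rest on uniquely placed reads alone. The isolated genes had 84.1% to 100% single-place words.

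The share of genes with a pooled summit was lowest where few words were single-place, in histone genes and in protein-coding genes. With under 25% single-place words within 1000 bp, 1 of 32 histone genes and 4 of 295 protein-coding genes (1.36%) had a pooled summit. From 25% to 50% the counts were 1 of 9 histone genes and 18 of 201 protein-coding genes (8.96%). From 50% to 75% they were 3 of 6 and 191 of 749, and from 75% to 95% they were 5 of 17 and 1055 of 2849. At 95% or more they were 6 of 8 histone genes and 7945 of 15879 protein-coding genes. The share rose from bin to bin in protein-coding genes, and in histone genes the small bins from 50% upwards were not in order. The protein-coding counts include the histone genes. With at least 75% single-place words, 7 of 20 clustered genes (35%) and 4 of 5 isolated genes had a pooled summit. These ranges, and the 1000 bp window, were chosen after the values were seen, and the part of repeated sequence in the result was not tested.

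**Figure D4:**
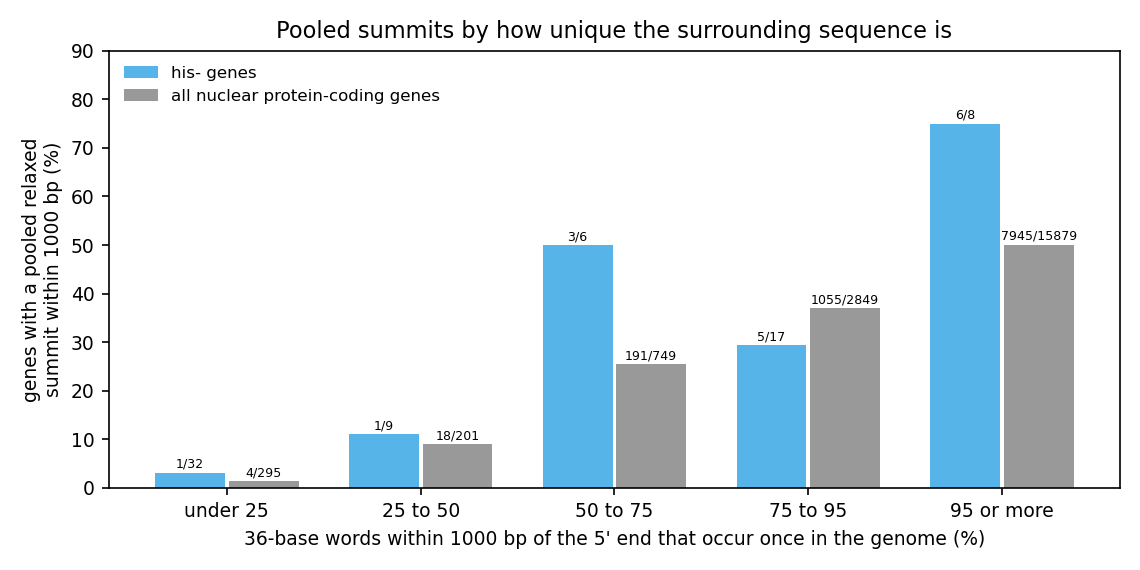
Percent of genes with a pooled relaxed summit within 1000 bp of the 5' end, by the percent of 36-base words in that window that occur at a single place in the genome, for his- genes and all nuclear protein-coding genes; labels give genes with a summit over genes in the bin. Both sets have under 12% with a summit where under 50% of words are single-place, and 6 of 8 his- genes and 7945 of 15879 protein-coding genes where at least 95% are.

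GC content within 1000 bp of the 5' end had a median of 42.3% at histone genes and 35.4% at protein-coding genes. Between protein-coding genes with 30% to 35% GC and those with 40% to 45% GC, the share with a pooled summit went from 57.1% to 29.5% and with a thresholded summit from 0.36% to 2.28%, while replicate 1 had 4324 of 8322 and 966 of 1932. In replicate 2 the share went from 59.2% to 27.7%. Base composition thus went with the pooled and replicate 2 shares in 1 direction, with the thresholded share in the other, and little with the share of replicate 1. Of the protein-coding genes with 40% to 45% GC, 29.5% had a pooled summit, 966 of 1932 one in replicate 1 and 27.7% one in replicate 2. Of the 66 histone genes in that range, 12 (18.2%) had a pooled summit, 22 (33.3%) one in replicate 1 and 11 (16.7%) one in replicate 2. The shares of histone genes were below those of protein-coding genes in this GC range in every relaxed list. With 95% or more single-place words as well, they were above them, but over 4 histone genes: 2 of 4 against 34.3% in the pooled list, 4 of 4 against 57.4% in replicate 1 and 2 of 4 against 32.3% in replicate 2. These GC ranges were chosen after the values were seen. The part of base composition in these counts was not tested.

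By histone type, a pooled summit lay near 4 of 17 H2A genes, 3 of 16 H2B genes, 6 of 20 H3 genes and 2 of 16 H4 genes. The share over protein-coding genes was 46.1%. Of the 6 H3 genes, 4 have a product that names H3.3, and the count over the other H3 genes was 2 of 15. In replicate 1 the counts by type were 5, 6, 9 and 5, beside 50.1% of protein-coding genes. In replicate 2 they were 3, 2, 5 and 2, beside 46.6%. The 3 genes that RefSeq gives no core type are his-24, his-39 and his-73, and 1 of them, his-24, had a summit. Types are spread over the same clusters, and members of a pair share summits, so the types are not independent.

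A stem-loop matching the histone pattern lay within 150 bp after the stop codon of 62 histone genes and of no other protein-coding gene. All 62 are clustered, and they include his-69, 1 of the 5 genes whose RefSeq product names H3.3. The commonest form was shared by 52 genes on II, IV, V and X, at 32 to 58 bp after the stop codon, and is shown as the mark of the replication-dependent class.
his-51 stem-loop: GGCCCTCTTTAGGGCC
The 10 genes without it were his-24, his-35, his-37, his-41, his-47, his-70, his-71, his-72, his-73 and his-74. A pooled summit lay near 11 of the 62 genes with a stem-loop (17.7%) and 5 of the 10 without, beside the 46.1% of protein-coding genes. In replicate 1 the counts were 18 of 62 and 8 of 10, beside 50.1%, and in replicate 2 they were 10 of 62 and 3 of 10, beside 46.6%. The genes without a stem-loop thus had a pooled share near that background. The split of summits by stem-loop was made after the values were seen. Most genes without a stem-loop have largely single-place surroundings, with his-47 as an exception, and the part of either property in these counts was not tested.

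Head-to-head pairs numbered 31, with 227 to 368 bp between annotated 5' ends and 21 distinct spacer sequences. The his-57/his-58 spacer of 283 bp counts as distinct, though its sequence is part of the his-47/his-48 spacer of 305 bp. They comprised 16 H2A/H2B pairs, 14 H3/H4 pairs and the H4/H2A pair his-67/his-68. No H2A/H2B spacer held a summit in any list. Of the H3/H4 spacers, 2 held a summit in replicate 1, namely those of his-63/his-64 with a signal of 2.67 and his-40/his-38 with 4.58. Neither had a pooled or replicate 2 summit. The pair his-67/his-68 was thus the only one with a summit in its spacer in all 3 relaxed lists. With 2.93 pooled summits per 10 kb over the nuclear genome, a spacer of this length would seldom hold one in any case. The genes of this pair had 93.9% to 94.8% single-place words within 1000 bp, while most clustered genes lie in repeated sequence. The part of repeated sequence in these counts was not tested.

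Motif letters in the stretch from 250 bases before to 50 bases after the 5' end were counted on either strand. TATAAA, the core of the TATA box, was in 65.3% of histone genes and 37.9% of protein-coding genes. GAGAGA was in 45.8% and 21.8%, and CCAAT in 54.2% and 45.5%. CACGTG was in 1.39% and 5.82%, and GACGCA in 2.78% and 8.78%. Since spacers recur, a motif in a shared spacer counts for several genes, as TATAAA does in the his-51/his-52 spacer printed above.

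Other genes of histone biology were taken from a list of 31 genes with single-place surroundings of 78.8% or more. A pooled summit lay near 13 of the 31 (41.9%), beside the 46.1% of protein-coding genes given above. In replicate 1 the count was 18 (58.1%, beside 50.1%), in replicate 2 it was 10 (32.3%, beside 46.6%), and in both replicates 8 (25.8%, beside 27.4%). Of 11 other histones, 5 had a pooled summit, of 16 chaperones and remodellers 6, and of 4 genes of histone mRNA processing and turnover 2. The only thresholded summit was at lin-53, which encodes a histone-binding protein of the RbAp48 family, with a pooled signal of 56.7 at rank 93. It lay 234 bp upstream of lin-53 and 233 bp from the 5' end of nra-2. Replicate 1 had a signal of 20.3 there, and replicate 2 had no overlapping peak, its nearest summit being 11114 bp away. This is the same pattern of lists as at his-37. Next by pooled rank were xnp-1, an ATRX homologue, with 22.2, and hil-7, a linker histone variant, with 20.6, and both had a summit in each replicate. Named after their values were seen, cdl-1, which encodes the stem-loop binding protein, had a pooled signal of 13.9 at rank 11069, and htz-1, the H2A.Z gene, had a summit in replicate 1 alone, with a signal of 17.8 at rank 128.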

How the data were processed

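Peak lists from 2 biological replicates of 1 group were used, with fragments selected between 150 and 350 bp per the labels. The authors deposited, per the accompanying notes, relaxed lists for each replicate and the pooled replicates, called against a control, and a thresholded pooled list. Each peak's deposited signal value was used to rank and describe peaks within a list. The sources used here do not give the caller, aligner or threshold. Depth is unknown, and exact 95% binomial intervals entered the alternatives only.

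Positions are 1-based on ce11. The annotation was release 115 of Ensembl for WBcel235, the same assembly. Ensembl gives 50 distinct symbols to the 72 records, so genes are named by RefSeq symbol, matched on WormBase ID for all 72. Histone type was taken from RefSeq product names, because no protein table was used here. Spacers are between gene starts under 1000 bp apart. Assignment and clustering were tested on simulated peaks. Python 3.11.15, numpy 2.4.6, pandas 2.3.3, scipy 1.17.1 and matplotlib 3.10.9 were used.

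The members, lists and comparisons were chosen with earlier results of these data known. Genes are named where they had a thresholded summit, were among the 10 best pooled ranks (a tie at the tenth place adds 1), were isolated, or, in the list of 31, had a thresholded summit or 1 of the 3 best pooled ranks, and clusters by their first and last gene. Other genes named beside small counts, at the distance limit or within a cluster, and cdl-1 and htz-1, were picked with their values in view. The alternatives tried were other distances, the nearest gene alone, protein-coding histone genes alone, interval overlap and the upper 50% of each list. Others were 5' regions as units, other cluster distances, nuclear ranks and each replicate alone.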

Additional observations from a re-analysis of the deposited data

How the results depend on the processing

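Of 55 alternative values over 7 results, 38 stayed within 1.5 times the reported count, rank or median, or within the exact 95% binomial interval of the reported share. The alternative of protein-coding histone genes alone could move nothing, since all 72 are protein-coding, and its values are among the 38. For the isolated share the interval ran from 28.4% to 99.5%, and every alternative fell inside it. The intervals take genes as independent, though members share DNA and summits. The 38 are thus no measure of how firm the results are. With a limit of 500 bp, a pooled summit lay near 6 histone genes (8.33%, beside 29.4% of protein-coding genes), a summit of both replicates near 4 and a pooled one near 4.48% of clustered genes, and the median rank was 2013.5. With 2000 bp, 3 genes had a thresholded summit and 17 a summit in both replicates, and the pooled share was 31.9%, beside 64.9% of protein-coding genes. With the nearest gene alone, the counts were 6 pooled (8.33%, beside 36.8% of protein-coding genes) and 3 in both replicates, with 5.97% of clustered genes and a median rank of 5438. In the upper 50% of each list, 4 genes had a summit in both replicates. Leaving out a replicate gave counts from 13 to 26, clustered shares from 14.9% to 32.8%, isolated shares from 60% to 80% and median ranks from 12448.5 to 14583. Chosen after seeing the data, 35% of clustered genes with at least 75% single-place words had a pooled summit, and the median share of single-place words was 29.3% within 1000 bp. The isolated share was higher than the clustered share under every alternative run on both. At 500 bp it was 60% (3 of 5), beside 29.4% of protein-coding genes. With the nearest gene alone it was 40% (2 of 5), close to the 36.8% of protein-coding genes. The cause of the other moves was not tested. No paired analysis was possible because the design holds a single group. No value rests on counts, so what depth limits is unknown.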

Other observations

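The letters TGTCCCC were noticed when the sequences were printed, so the counts here are a description made after the values were seen. On either strand, from 250 bases before to 50 after the 5' end, they were in 47 of 72 histone genes (65.3%), in 1.55% of protein-coding genes and in 4.19% of those with 40% to 45% GC. In the printed his-37 sequence they start at base 154, 2 bases before the pooled summit, and in the his-24 sequence at base 193, 3 bases after it. Of 30 spacers off the pair his-67/his-68, 22 hold them, and none of those 30 held a pooled summit. The spacer of his-67/his-68, left out of this count, is the only one that held a pooled summit. The count thus cannot show whether the letters go with summits in spacers. Most clustered genes also lie in repeated sequence, as described above.

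A run of 20 bases around these letters is identical at his-37 and his-24 and occurs at 5 places in the genome. The nearest pooled summit lay 5 bp from its centre at his-37, 10 bp at his-24, 13 bp at a site on II with a signal of 17.1, and 354 and 1058 bp at the other 2 sites. The run was taken from his-37 and his-24, so their short distances are no separate observation. At his-37, his-24 and the site on II, the nearest replicate 1 summit lay 29, 15 and 2930 bp away. For replicate 2 the distances were 2355, 127 and 105 bp. Among protein-coding genes other than histone genes, 118 of 262 with the letters had a pooled summit within 1000 bp, beside 9213 of 19973 over all protein-coding genes. Among histone genes with at least 75% single-place words, it was 6 of 11 with the letters and 5 of 14 without. Both his-37 and his-24, whose printed sequences hold the letters, are among the 6. This count is thus not separate from how the letters were noticed. Also among the 6 are his-3 and his-4, which share a summit, so the genes are not separate peaks. That summit lay 649 bp after the start of his-3, outside the spacer that holds the letters.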
